A study of Mus musculus with 12 samples.

Results

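Dkk1, Dkk2, Dkk3, Sfrp1, Sfrp2, Wif1, Kremen1, Axin2, Fzd7 and Wnt5a, genes of Wnt antagonists and other parts of the Wnt pathway, were described in macrophages that had entered tumour spheres and in macrophages of the same cultures that had stayed outside. These are 10 of 17097 genes for which a probe set names that gene alone. They were picked by symbol, and where several probe sets name a gene the brightest on average was taken. The choice was made with earlier results of these data in view. The difference of Dkk2 between the compartments was among those results and is given as values without a test. Which values brought in the other genes is not recorded, so the tests given are no independent evidence.

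The cells were bone marrow-derived macrophages of C57BL/6 background, added to spheres of TT9423, a neuroblastoma cell line, on agar. The 4 groups were CD11b+ macrophages taken from the spheres at 24 h or 48 h and macrophages from the agar outside the spheres at 24 h or 48 h, with 3 arrays each. All groups shared the culture with TT9423 cells, no treatment was given, and each array held cells pooled from several wells of an independent experiment. The tumour cells are of 1 line, and the protocol describes CD11b column selection for digested spheres, with no word on how the outside cells were handled. The times are those of the titles, while the protocol text, the same for all groups, describes a co-culture of 24 h.

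Wnt proteins are secreted ligands that bind Frizzled receptors. With the co-receptors LRP5 and LRP6 they stop the destruction of beta-catenin, which then acts with TCF/LEF factors on target genes, and with ROR and RYK receptors they signal without beta-catenin. The Dickkopf proteins DKK1 and DKK2 bind LRP5 and LRP6, with Kremen proteins as partners, whereas secreted Frizzled-related proteins and WIF1 bind the ligands themselves. Several antagonists are known from mesenchymal cells, and WNT5A is known as a ligand of inflamed macrophages.

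Values are log2 expression after RMA, and a gene was tested if it exceeded 2.77, the 40th percentile of all values, on at least 3 arrays. Macrophage markers exceeded this level in all groups, though not evenly, Cx3cr1 averaging 8.41 in spheres and 5.91 outside at 24 h. In spheres at 24 h Itgam, which encodes CD11b, averaged 8.66, Adgre1 10.71 and Csf1r 9.43. Of the arrays, replicate 3 of the 48 h in-sphere group was the dimmest, its values averaging 4.06 where the others averaged 4.20 to 4.22. In such bulk extracts, fewer cells expressing a gene and less RNA of it per cell cannot be told apart. The number of arrays limits the precision.

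Of the 10 genes, 6 passed the filter: Dkk2 and Sfrp2, which exceeded the level on 6 and 8 arrays, and Dkk3, Kremen1, Fzd7 and Wnt5a, which exceeded it on all 12. Kremen1 lay just inside, with values from 2.87 to 3.40, and Dkk1 and Sfrp1 just outside, with 1 array each over the level. Dkk2, Sfrp2, Dkk3 and Wnt5a were higher in spheres and Fzd7 was lower at both times. Over all tested genes, limma called 29.4% at 24 h (15.8% higher, 13.6% lower in spheres) and 37.5% at 48 h (15.2% higher, 22.3% lower). Arrays of the 2 compartments did not overlap for 43.4% of genes at 24 h (22.0% higher, 21.5% lower) and for 51.6% at 48 h (20.7% higher, 31.0% lower). Nothing is read from the members' count against these shares, because Dkk2 and Sfrp2 passed the filter only through their in-sphere arrays.

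**Figure D1:**
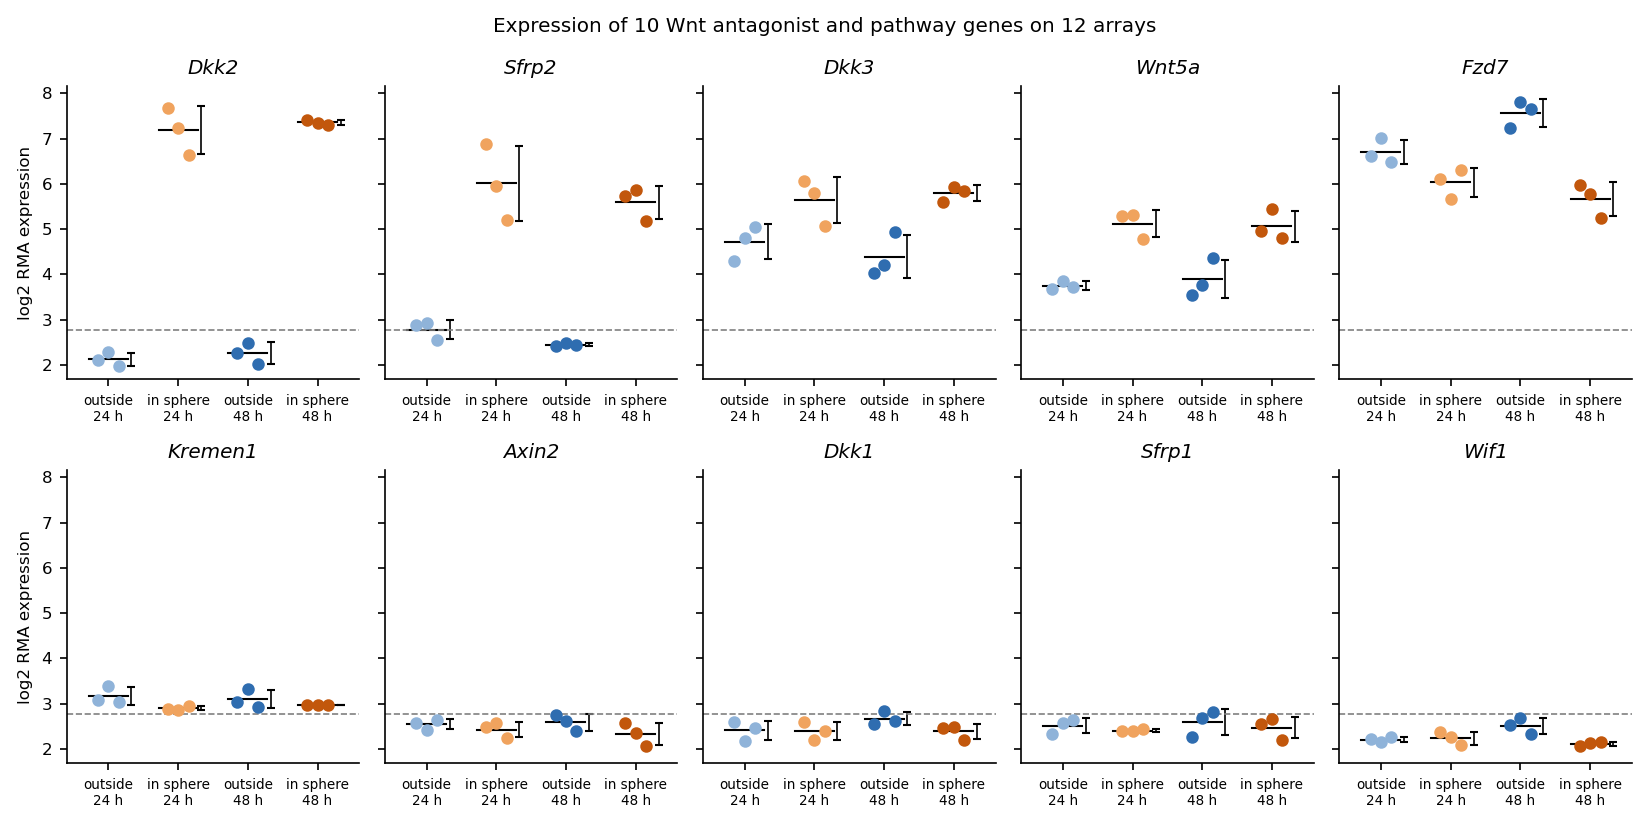
Log2 RMA expression of the 10 genes (vertical axis) in the 4 groups (horizontal axis). Points are arrays, horizontal bars means, vertical bars SD (n = 3), and the dashed line is the filter level of 2.77; Dkk2 and Sfrp2 part the compartments widely, Dkk3 and Wnt5a less so, Fzd7 runs the other way, and the genes of the lower row lie near or under the level.

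Promoter windows of Dkk2, Sfrp2 and Fzd7, the members with the widest differences at 48 h, are shown so that their start regions can be read side by side. They come from RefSeq (GRCm38.p6), which gave windows for 6 of the 10 genes, and run 5′ to 3′ from 250 bases before to 50 after the annotated start. Capitals mark the TCF/LEF core CTTTG on either strand (CAAAG when on the other) and the TATA box TATAAA on the gene's strand; matches share no bases. All lie on the plus strand, Dkk2 at chr3:132085042-132085341, Sfrp2 at chr3:83766071-83766370 and Fzd7 at chr1:59481897-59482196.
Dkk2: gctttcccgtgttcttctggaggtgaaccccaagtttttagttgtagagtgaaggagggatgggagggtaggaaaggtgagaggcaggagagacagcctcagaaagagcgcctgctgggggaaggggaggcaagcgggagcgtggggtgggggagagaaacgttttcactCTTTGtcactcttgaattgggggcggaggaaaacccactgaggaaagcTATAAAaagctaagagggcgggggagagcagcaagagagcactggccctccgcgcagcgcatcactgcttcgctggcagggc
Sfrp2: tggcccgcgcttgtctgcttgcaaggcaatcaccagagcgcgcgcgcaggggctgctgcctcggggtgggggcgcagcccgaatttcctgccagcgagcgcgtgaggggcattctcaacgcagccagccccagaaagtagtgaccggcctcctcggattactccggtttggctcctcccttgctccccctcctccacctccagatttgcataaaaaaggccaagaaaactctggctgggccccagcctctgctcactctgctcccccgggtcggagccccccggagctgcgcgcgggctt
Fzd7: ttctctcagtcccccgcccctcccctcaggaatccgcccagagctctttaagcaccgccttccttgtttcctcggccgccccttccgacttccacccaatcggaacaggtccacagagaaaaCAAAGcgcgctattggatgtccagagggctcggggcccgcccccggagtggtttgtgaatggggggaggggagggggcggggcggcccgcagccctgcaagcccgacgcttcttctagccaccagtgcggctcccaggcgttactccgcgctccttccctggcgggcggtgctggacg
The Dkk2 window held 1 core, 80 bases before the start, and 1 TATA box, 32 bases before it. That of Fzd7 held 1 core, on the other strand and 128 bases before the start, and that of Sfrp2 held 0 of either motif. The core occurred in 53.9% of all 32851 windows of this length and the TATA box in 8.3%. Among the dim members, Dkk1 had 4 cores and 1 TATA box, Wif1 1 core and Axin2 0 of either. A match is a run of letters, and binding was not measured.

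Dkk2, a Dickkopf protein that blocks LRP5 and LRP6 or acts as a weak agonist depending on its partners, was bright on every in-sphere array and under the filter level on every outside array. Its probe set, 1420512_PM_at, gave 7.68, 7.24 and 6.63 in spheres at 24 h and 2.12, 2.28 and 1.99 outside. At 48 h it gave 7.41, 7.35 and 7.31 in spheres and 2.27, 2.49 and 2.02 outside. Each in-sphere array thus lay more than 4 units above each outside array. The log2 difference was 5.06 ± 0.22 (SE, n = 3 against 3) at 24 h and 5.09 ± 0.22 at 48 h. Against outside arrays set to the filter level, Dkk2 was at least 21.2-fold higher at 24 h and at least 23.9-fold higher at 48 h. Between arrays of the same replicate number the difference was 5.56, 4.96 and 4.64 at 24 h and 5.13, 4.86 and 5.29 at 48 h.

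Sfrp2, a secreted Frizzled-related protein known from mesenchymal cells, was also far higher in spheres. Probe set 1448201_PM_at gave 6.87, 5.95 and 5.21 in spheres at 24 h and 2.88, 2.92 and 2.56 outside. At 48 h the values were 5.74, 5.86 and 5.17 in spheres and 2.43, 2.48 and 2.45 outside. The compartments did not overlap, and the in-sphere arrays at 24 h were the most spread (6.01 ± 0.83, mean ± SD, n = 3). The difference was 3.22 ± 0.32 (SE) at 24 h and 3.14 ± 0.32 at 48 h. It is given without a test, since Sfrp2 entered the tested genes only through the arrays where it is high. Outside cells exceeded the filter level on 2 of 3 arrays at 24 h and on 0 of 3 at 48 h, where Sfrp2 was at least 7.03-fold higher in spheres.

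Dkk3, a divergent Dickkopf family member, was moderately higher in spheres. Probe set 1417312_PM_at gave 6.06, 5.79 and 5.08 in spheres at 24 h and 4.30, 4.80 and 5.05 outside. At 48 h it gave 5.60, 5.94 and 5.84 in spheres and 4.03, 4.22 and 4.93 outside. The compartments did not overlap, though at 24 h the lowest in-sphere and the highest outside array, both replicate 3, nearly met. The difference was 0.92 ± 0.28 (SE, limma adjusted p = 0.0277) at 24 h and 1.40 ± 0.28 (adjusted p = 0.00213) at 48 h. The 24 h call ended without any one of in-sphere replicates 1 (0.118) and 2 (0.0854) and outside replicates 1 (0.112) and 2 (0.0542), the values in brackets here and for other lost calls being adjusted p, which ran from 0.00525 to 0.118 over 21 alternatives. The other probe set differed by 0.82 ± 0.21 and 1.06 ± 0.21 at the 2 times.

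Wnt5a, a ligand best known for signalling without beta-catenin, was higher in spheres too. Probe set 1448818_PM_at gave 5.28, 5.32 and 4.78 in spheres at 24 h and 3.68, 3.86 and 3.73 outside. At 48 h it gave 4.96, 5.44 and 4.79 in spheres and 3.55, 3.76 and 4.36 outside. The compartments did not overlap at either time, and replicate 3 at 48 h was the highest outside array. The difference was 1.37 ± 0.23 (SE, limma adjusted p = 7.75e-04) at 24 h and 1.17 ± 0.23 (adjusted p = 0.00151) at 48 h. The other probe set gave 0.90 ± 0.24 (adjusted p = 0.0155) and 0.64 ± 0.24 (adjusted p = 0.0584) in a limma fit of all probe sets, so that at 48 h it missed the threshold.

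Fzd7, a Frizzled receptor, was the member that was lower in spheres. Probe set 1450044_PM_at gave 6.11, 5.67 and 6.31 in spheres at 24 h and 6.61, 7.01 and 6.49 outside. At 48 h it gave 5.98, 5.78 and 5.26 in spheres and 7.22, 7.81 and 7.65 outside. The compartments did not overlap, by a narrow margin at 24 h and a wide one at 48 h. The difference was -1.89 ± 0.23 (SE, limma adjusted p = 6.28e-05) at 48 h and -0.67 ± 0.23 (adjusted p = 0.0465) at 24 h.

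The 24 h call of Fzd7 was lost in limma with the mean of its probe sets (0.162), with no filter (0.0576), with the replicate number as a block (0.0614), and without any one of in-sphere replicates 1 (0.0847) and 2 (0.174), outside replicates 1 (0.0763), 2 (0.165) and 3 (0.0517), in-sphere replicate 2 (0.0577) of 48 h and outside replicates 2 (0.0504) and 3 (0.0608) of 48 h. Its other probe set, 1450043_PM_at, was dimmer, with differences of -0.026 ± 0.17 at 24 h and 0.11 ± 0.17 at 48 h. The lower value of Fzd7 in spheres therefore rests on 1 of its 2 probe sets.

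**Figure D2:**
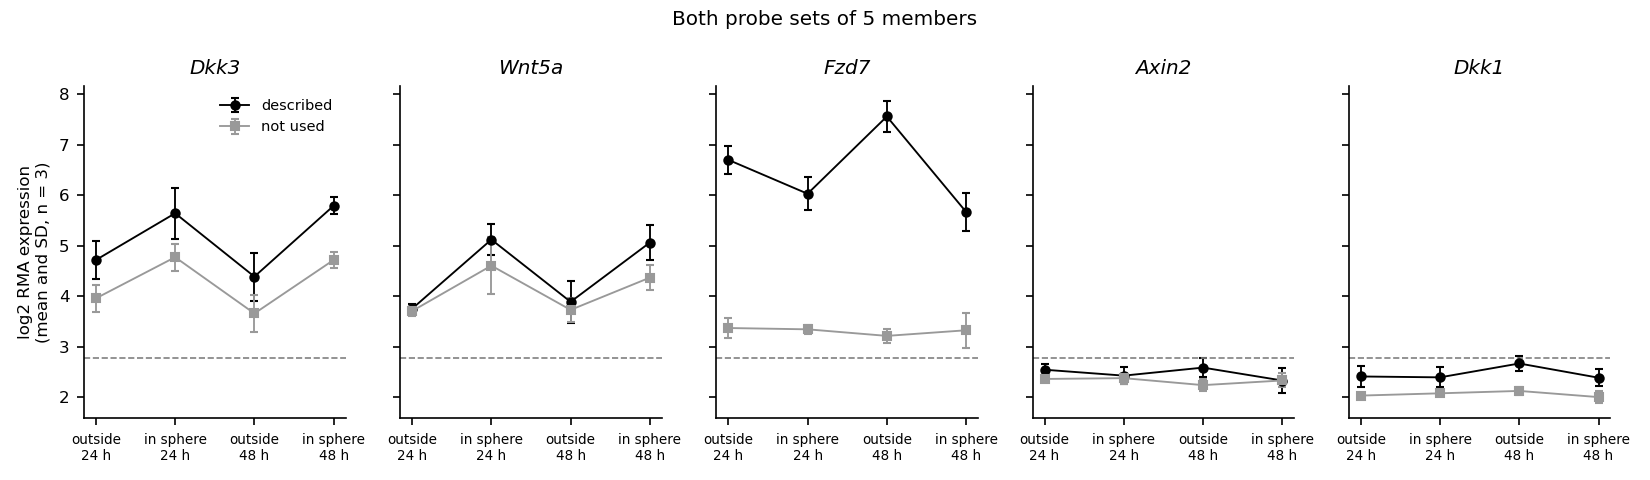
Mean log2 RMA expression (vertical axis) in the 4 groups for the 5 members with 2 probe sets naming them alone. Bars are SD (n = 3), black is the probe set described, grey the other, and the dashed line the filter level; both probe sets of Dkk3 and Wnt5a are higher in spheres, while the dimmer one of Fzd7 stays between 3.22 and 3.37.

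The remaining members were dim by the probe sets used. Kremen1, a receptor that helps Dickkopf proteins remove LRP6 from the cell surface, averaged 2.90 in spheres and 3.18 outside at 24 h, without overlap, and 2.97 and 3.11 at 48 h. Its difference was -0.27 (-0.56 to 0.0092) at 24 h and -0.13 (-0.42 to 0.15) at 48 h (95% intervals), with limma adjusted p of 0.139 and 0.466. The group means of Dkk1, a strong LRP5 and LRP6 antagonist, ran from 2.39 to 2.67. Those of the ligand-binding antagonists ran from 2.41 to 2.60 for Sfrp1 and from 2.11 to 2.51 for Wif1. Axin2, a scaffold of the beta-catenin destruction complex and a common readout of beta-catenin signalling, exceeded the level on 0 of 12 arrays, with means from 2.33 to 2.59. These 4 genes did not pass the filter and have no test in the fit described. Fitted without a filter, Wif1 was called lower in spheres at 48 h (-0.40, limma adjusted p = 0.0202), with all of its arrays under the level. Further probe sets that share a second gene, 1 for Kremen1 and 3 for Sfrp1, were not used. That of Kremen1, 1435472_PM_at, also names Bcas3 and was brighter. It averaged 4.90 in spheres and 4.98 outside at 24 h, and 4.73 and 5.06 at 48 h.

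**Figure D3:**
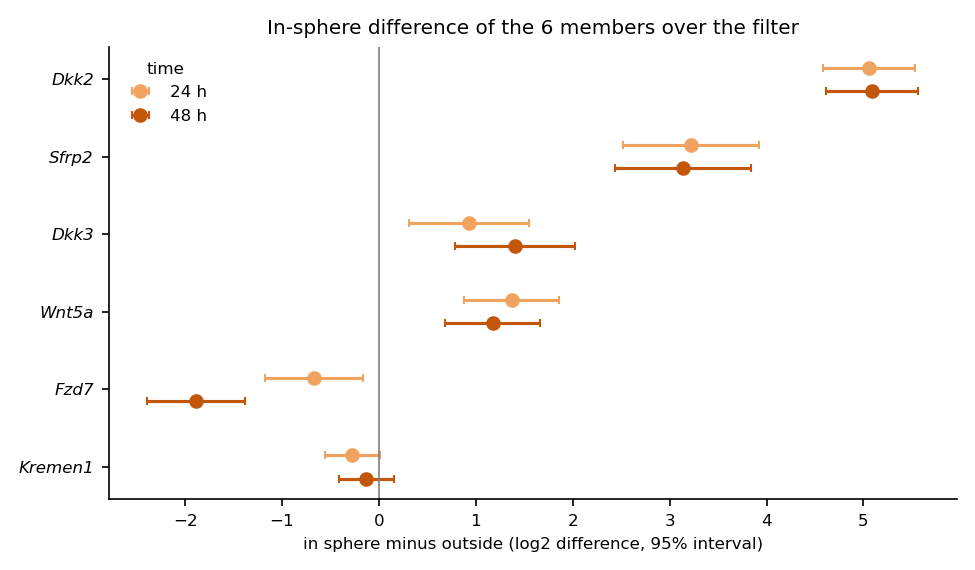
Log2 difference between in-sphere and outside cells (horizontal axis) for the 6 members over the filter, at 24 h (light) and 48 h (dark). Points are limma estimates (n = 3 against 3) and bars 95% intervals, with the spread taken from all 12 arrays. No test is read from the intervals of Dkk2 and Sfrp2. At 48 h the estimates run from 5.09 for Dkk2 to -1.89 for Fzd7, and the interval of Kremen1 includes 0 at both times.

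Between 24 h and 48 h no change of a member passed the test. In spheres limma called 0 of the 6, with 0 at an unadjusted p under 0.05, and 0% of all genes. The in-sphere changes, with 95% intervals, were 0.17 (-0.30 to 0.65) for Dkk2, -0.42 (-1.12 to 0.28) for Sfrp2, 0.15 (-0.47 to 0.77) for Dkk3, -0.059 (-0.55 to 0.43) for Wnt5a and -0.36 (-0.86 to 0.14) for Fzd7. Arrays of the 2 times did not overlap for 13.8% of all genes in spheres (4.46% higher, 9.30% lower at 48 h), Kremen1 among them at 0.073 (-0.21 to 0.36).

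Outside the spheres limma called 0 of the 6 members and 0.336% of all genes (0.112% higher, 0.224% lower), with 1 member at an unadjusted p under 0.05. That gene was Fzd7, whose outside arrays of the 2 times did not overlap, at 0.86 ± 0.23 (SE, adjusted p = 0.155). Outside arrays of the 2 times did not overlap for 22.1% of all genes (13.4% higher, 8.66% lower), Sfrp2, near the filter level, being among the lower ones. How far the compartments' difference itself moved between the times was tested as well. Limma called 0 of the 6 and 0% of all genes, with 1 member at an unadjusted p under 0.05, again Fzd7, at -1.22 ± 0.33 (adjusted p = 0.178). For Dkk2 that movement was 0.036 (-0.64 to 0.71), with its 95% interval.

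By group means, the 2 in-sphere groups came first for Dkk2, Sfrp2, Dkk3 and Wnt5a and last for Fzd7, and overlapped each other for all 5. The 2 outside groups overlapped for Dkk2, Dkk3 and Wnt5a but not for Sfrp2 and Fzd7.

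Markers of other cells also differed between the compartments. Beside the counts of each marker list, 15.8% of all genes were higher and 13.6% lower in spheres at 24 h, and 15.2% and 22.3% at 48 h. Among 16 genes typical of fibroblasts and stroma, 9 were higher and 2 lower at 24 h and 10 were higher and 3 lower at 48 h in spheres. Their summed level (log2 of the sum of linear values) was 13.31 to 13.53 in spheres and 12.54 to 12.62 outside at 24 h, and 13.38 to 13.46 and 12.51 to 12.75 at 48 h. Vim, the brightest gene of the list, weighs most in this sum. It averaged 12.85 in spheres and 12.26 outside at 24 h, and 12.83 and 12.30 at 48 h. On the 6 in-sphere arrays together 0 of the 16 stayed under the filter level throughout. By group, 0 in spheres and 2 outside stayed under it on all 3 arrays at 24 h, and 1 and 0 at 48 h. At 24 h the collagen-crosslinking enzyme gene Loxl1 differed by 2.99 ± 0.36, the collagen gene Col3a1 by 2.64 ± 0.31, the proteoglycan gene Dcn by 2.60 ± 0.55 and Thy1 by 2.36 ± 0.23. The lower ones at 24 h, named after their values were seen, were Acta2 (-0.76 ± 0.17) and Col1a1 (-0.60 ± 0.21). Twist1, counted as higher at 24 h, and Col1a2, counted as higher at 48 h, entered the test only through in-sphere arrays. Outside, each exceeded the filter level on 0 arrays at 24 h and on 2 at 48 h.

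In replicates 1, 2 and 3 the list's mean log2 value was 6.88, 6.53 and 6.18 in spheres at 24 h, the order of Dkk2, Sfrp2 and Dkk3 on those arrays but not of Wnt5a. In spheres at 48 h it was 6.69, 6.61 and 6.64, an order that none of these 4 genes had. Outside it was 5.24, 5.48 and 5.65 at 24 h, the order of Dkk3 alone among the 4, and 5.20, 5.62 and 5.98 at 48 h, the order of Dkk3 and Wnt5a. The part of these cells in the values of Dkk2, Sfrp2, Dkk3 and Wnt5a was not tested.

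Neuroblastoma and neural markers were mostly dim. Of 23 with a probe set 15 were tested; 2 were higher and 0 lower in spheres at 24 h and 3 were higher and 0 lower at 48 h. Their summed level was 8.23 to 8.85 in spheres and 7.56 to 7.71 outside at 24 h, and 8.33 to 8.58 and 7.42 to 7.44 at 48 h. The higher genes were the growth cone gene Gap43 (3.99 ± 0.30 at 24 h, 4.41 ± 0.30 at 48 h), the adhesion molecule gene Ncam1 (0.99 ± 0.20 and 1.64 ± 0.20) and, at 48 h, Elavl4. Elavl4 exceeded the filter level only on the 3 in-sphere arrays of 48 h, through which it entered the test. On all 6 in-sphere arrays 8 of the 23 stayed under the filter level, Chga, Ret and Alk among them. By group, 10 in spheres and 8 outside stayed under it on all 3 arrays at 24 h, and 10 and 10 at 48 h. The noradrenergic markers Th, Dbh and Phox2a averaged 3.02, 3.11 and 2.87 in spheres at 24 h and 3.07, 3.47 and 2.94 outside. TT9423 cells alone were not analysed here, and the part of tumour cells in the values of Dkk2 and the other members was not tested.

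Of 5 tested Schwann and neural crest markers, 1 was higher and 0 lower at 24 h and 1 was higher and 0 lower at 48 h. Of 5 endothelial ones, 0 were higher and 1 lower at 24 h and 0 were higher and 1 lower at 48 h. Of 6 osteoblast and osteocyte ones, 1 was higher and 2 lower at 24 h and 0 were higher and 4 lower at 48 h. Their summed level was 5.93 to 6.44 in spheres and 7.11 to 8.50 outside at 24 h, and 5.79 to 5.92 and 9.47 to 10.36 at 48 h. The bone matrix genes Ibsp (-4.48 ± 0.28 and -6.59 ± 0.28) and Dmp1 (-2.70 ± 0.64 and -5.81 ± 0.64) were lower in spheres at both times. Phex went the other way at 24 h (1.79 ± 0.39, limma adjusted p = 0.00429), when 0 outside arrays exceeded the filter level. It averaged 4.22 in spheres and 2.43 outside at 24 h, but 3.43 and 4.35 at 48 h. Ibsp exceeded the filter level only on outside arrays, through which it entered the test. Outside, from 24 h to 48 h, limma called 1 of the 6 higher, Ibsp (2.20 ± 0.28, adjusted p = 0.0169), and 0.112% of all genes higher. Over the same arrays Fzd7 differed by 0.86 ± 0.23 (limma adjusted p = 0.155). The part of cells with these bone markers in the values of Fzd7 was not tested. Of 15 macrophage markers, 2 were higher and 3 lower at 24 h and 3 were higher and 3 lower at 48 h, and their summed levels ran from 14.61 to 14.97. The higher ones at 24 h were Cx3cr1 (2.50 ± 0.21) and Cd14 (0.54 ± 0.13). The lower ones at 24 h were Cebpa (-1.47 ± 0.19), Mertk (-0.91 ± 0.15) and Adgre1 (-0.43 ± 0.13). The 3′ minus 5′ signal of the beta-actin control, a sign of RNA quality, was 0.35 to 0.60 in spheres and 0.22 to 0.32 outside at 24 h, and 0.39 to 0.42 and 0.37 to 0.40 at 48 h. Its part in the members' values was not tested.

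Other genes of the pathway were taken as 8 lists by role, 103 genes beside the members, of which 71 passed the filter. At 24 h 12 were higher and 6 lower in spheres, 25.4% of those tested beside 29.4% of all genes; without in-sphere replicate 1, 7 were higher. At 48 h 10 were higher and 11 lower, 29.6% beside 37.5%; without in-sphere replicate 2, 6 were higher. Beside the counts of each list below, 15.8% of all genes were higher and 13.6% lower at 24 h, and 15.2% and 22.3% at 48 h. No list's count is read as a result about that list. The median difference of the 71 genes was 0.013 at 24 h and -0.12 at 48 h, beside -0.0068 and -0.10 over all tested genes. Of the 71, 14 passed in the same direction at both times, 8 higher and 6 lower. For the movement of the difference between the times limma called 0 of them, while by an unadjusted p under 0.05 there was 1 higher and 4 lower.

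**Figure D4:**
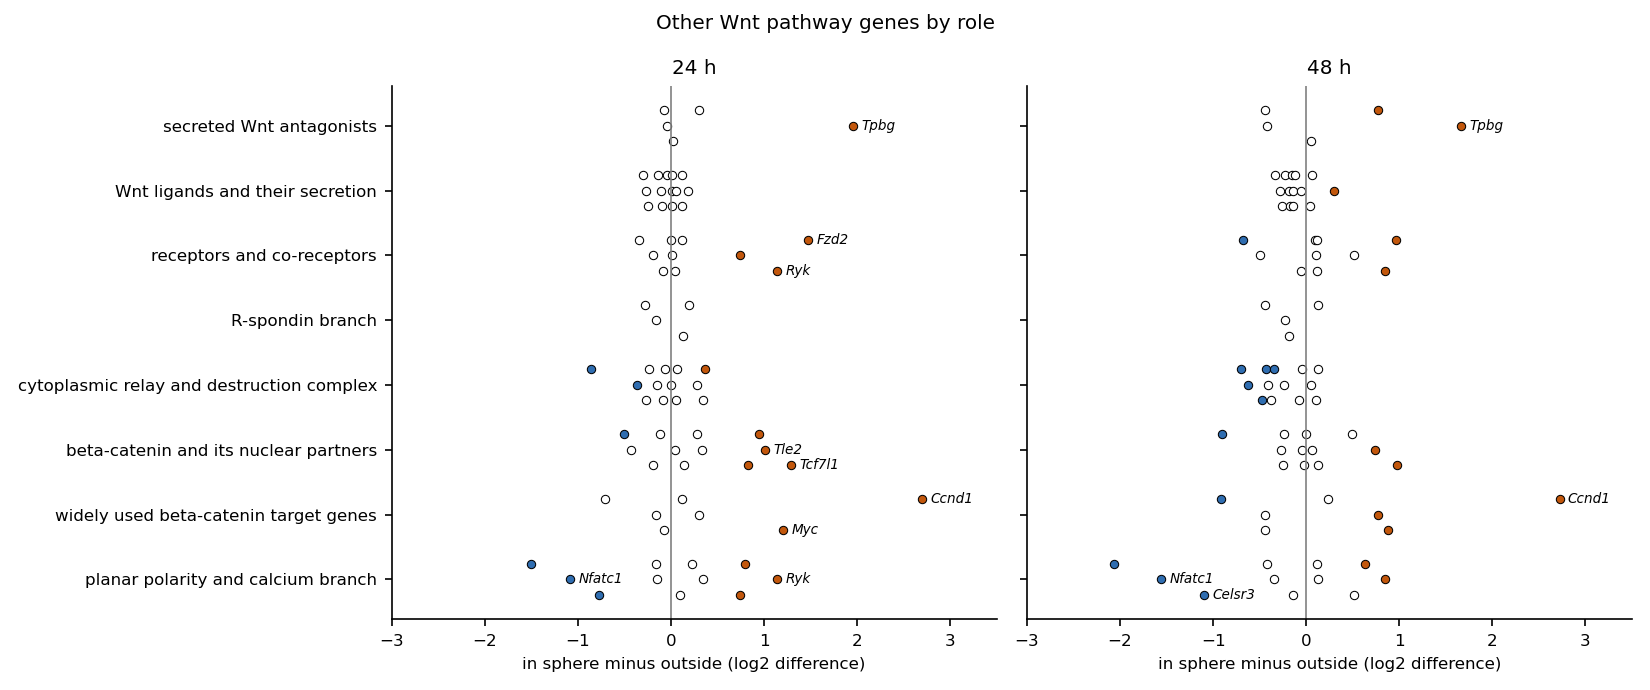
Log2 difference between in-sphere and outside cells (horizontal axis) for each tested gene of the 8 lists (rows) at 24 h and 48 h. Points are genes, orange where higher and blue where lower at a limma adjusted p under 0.05 and open otherwise, genes differing by at least 1 are named except for 1 not reported here, and vertical offsets only separate points; Ccnd1 and Tpbg lie farthest right.

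Of the other antagonists 1 was higher and 0 lower among 5 tested at 24 h and 2 were higher and 0 lower at 48 h. Tpbg, a membrane glycoprotein that hinders Wnt signalling at LRP6, gave 5.44, 5.18 and 4.51 in spheres and 3.05, 3.08 and 3.14 outside at 24 h. It did not overlap and differed by 1.96 ± 0.20 (SE, limma adjusted p = 2.52e-05) at 24 h and 1.66 ± 0.20 (adjusted p = 4.89e-05) at 48 h. Apcdd1, a membrane inhibitor that binds Wnt and LRP proteins, was dim and higher at 48 h (adjusted p = 0.00585), by at least 1.45-fold against outside arrays set to the filter level, which 0 of 3 exceeded. At 24 h it differed by 0.30 ± 0.18.

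Wnt ligands other than Wnt5a were dim. Of 18 with a probe set 12 passed the filter, and 0 exceeded 3.84, the 60th percentile of all values, on 3 arrays. With the secretion genes Wls and Porcn, limma called 0 of 14 at 24 h, with 1 at an unadjusted p under 0.05, a lower one, and 1 higher at 48 h. That gene was Wnt11 (at least 1.04-fold, adjusted p = 0.0319), whose group means ran from 2.53 to 2.84 about the filter level and whose call ended in a fit of the 2 groups alone (0.0536), and without any one of in-sphere replicates 1 (0.0819) and 2 (0.0595) and outside replicates 1 (0.103), 2 (0.0835) and 3 (0.0542). Its difference was 0.30 at 48 h but -0.27 at 24 h, the other direction, where its arrays did not overlap either. The 24 h difference was not called, though 6 of 20 alternatives called it. Wls, the carrier that takes Wnt proteins to the cell surface, averaged 8.00 in spheres and 7.99 outside at 24 h.

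Of 10 tested receptors 3 were higher and 0 lower at 24 h, and 2 were higher and 1 lower at 48 h. Fzd2, a Frizzled receptor, gave 4.88, 4.54 and 4.52 in spheres and 3.02, 3.07 and 3.44 outside at 24 h. It was higher by 1.47 ± 0.17 (SE, limma adjusted p = 5.68e-05) at 24 h and 0.96 ± 0.17 (adjusted p = 7.38e-04) at 48 h. Ryk, a co-receptor for WNT5A, was higher by 1.14 ± 0.21 and 0.85 ± 0.21, the latter call ending with the mean of its probe sets (0.0672). Ror2, another WNT5A receptor, was higher at 24 h (0.75 ± 0.22, adjusted p = 0.0201) and differed by 0.52 ± 0.22 at 48 h (adjusted p = 0.0776). Its 24 h call ended with array weights (0.0562), and without any one of in-sphere replicates 1 (0.0887) and 3 (0.0501) and outside replicates 1 (0.0699) and 2 (0.0569). Fzd5 was lower at 48 h (-0.68 ± 0.20, adjusted p = 0.0209), with overlapping arrays, a call that ended in a fit of the 2 groups alone (0.0699), and without any one of in-sphere replicates 2 (0.0815) and 3 (0.0769) and outside replicates 1 (0.0599) and 3 (0.0865). Its 2 probe sets were lower at 48 h, and 1 of them passed.

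Of 13 tested genes of the cytoplasmic relay, 1 was higher and 2 lower at 24 h and 0 were higher and 5 lower at 48 h. The kinase genes Gsk3b (-0.48 ± 0.12) and Csnk1e (-0.43 ± 0.096) and the Dishevelled gene Dvl2 (-0.70 ± 0.19) were lower at 48 h. All 4 probe sets of Gsk3b and all 3 of Csnk1e were lower then, but only 2 of each gene passed. Gsk3a was lower at both times (-0.37 ± 0.11 and -0.35 ± 0.11); the 24 h call ended in a fit of the 2 groups alone (0.0649), and without any one of in-sphere replicate 2 (0.0858) and outside replicates 2 (0.0628) and 3 (0.0627), and the 48 h call after quantile normalization (0.134), and without any one of outside replicates 2 (0.0576) and 3 (0.0851). Csnk1d was lower at both times by the probe set used (-0.85 ± 0.15 and -0.63 ± 0.15), but 2 of its 4 probe sets were higher at each time, so that its direction is not settled. The higher gene at 24 h, Tnks (0.36 ± 0.12), was named after its value was seen; 1 of its 3 tested probe sets had that sign. It lost the call without any one of in-sphere replicates 1 (0.0866), 2 (0.0815) and 3 (0.0810), outside replicates 1 (0.0721), 2 (0.125) and 3 (0.0818), in-sphere replicate 2 (0.0568) of 48 h and outside replicate 3 (0.0620) of 48 h. Of the R-spondin branch, which strengthens Wnt signalling at the receptor, 4 of 9 genes were tested and limma called 0 at either time, with 0 at 24 h and 1 lower at 48 h at an unadjusted p under 0.05.

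Ctnnb1, the beta-catenin gene, was lower in spheres. It gave 10.65, 10.67 and 10.59 in spheres and 11.16, 11.12 and 11.14 outside at 24 h, and 10.63, 10.70 and 10.70 in spheres and 11.62, 11.60 and 11.50 outside at 48 h. The groups did not overlap, the differences were -0.50 ± 0.094 (limma adjusted p = 0.00172) and -0.90 ± 0.094 (adjusted p = 2.03e-05), and all 3 probe sets were lower at both times. With its nuclear partners, 4 were higher and 1 lower of 12 tested at 24 h and 2 were higher and 1 lower at 48 h.

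The higher partners were the TCF factor gene Tcf7l1 (1.29 ± 0.35 at 24 h, 0.98 ± 0.35 at 48 h), the co-repressor genes Tle1 (0.94 ± 0.21 and 0.74 ± 0.21) and, at 24 h, Tle2 (1.01 ± 0.22), and Bcl9l (0.83 ± 0.23 at 24 h), a partner of beta-catenin. In limma the 24 h call of Tcf7l1 ended without any one of in-sphere replicate 1 (0.0622) and outside replicate 1 (0.0595). Its 48 h call (adjusted p = 0.0461) ended with the mean of its probe sets (0.0532), with no filter (0.0588), with the replicate number as a block (0.0610), and without any one of in-sphere replicate 2 (0.0565) of 24 h, outside replicates 1 (0.0522) and 2 (0.0575) of 24 h, in-sphere replicates 1 (0.0895) and 2 (0.155) and outside replicates 1 (0.166), 2 (0.0553) and 3 (0.0702). The 48 h call of Tle1 ended without any one of in-sphere replicate 2 (0.0519) and outside replicate 1 (0.0666), and that of Bcl9l at 24 h with the mean of its probe sets (0.422), and without any one of in-sphere replicate 1 (0.0773) and outside replicate 1 (0.0619). Of 2 tested probe sets of Bcl9l, 1 was higher at 24 h.

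Of 7 tested genes widely used as beta-catenin targets 2 were higher and 0 lower at 24 h and 3 were higher and 1 lower at 48 h, Apcdd1 being counted here too. Lgr5, Lef1, Sp5, Nkd1 and Rnf43 did not pass the filter. Ccnd1, the cyclin D1 gene, gave 10.30, 10.32 and 10.65 in spheres and 7.43, 7.64 and 8.10 outside at 24 h, a difference of 2.70 ± 0.19 (limma adjusted p = 2.36e-06). At 48 h it differed by 2.72 ± 0.19, and all 3 probe sets were higher at both times. Myc, a growth regulator with many other inputs, was higher by 1.20 ± 0.22 and 0.88 ± 0.22. Bambi, a TGF-beta pseudoreceptor gene, was lower at 48 h (-0.92 ± 0.26, adjusted p = 0.0138); at 24 h it differed by -0.70 ± 0.26 (adjusted p = 0.0563, and 0.00972 given the replicate block).

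Of 11 tested genes of the planar polarity and calcium branch 3 were higher and 3 lower at 24 h and 2 were higher and 3 lower at 48 h, with Ryk and Ror2 counted again. Nfatc1, a calcium-regulated factor, was lower (-1.08 ± 0.20 and -1.56 ± 0.20), though 1 of its 5 probe sets passed at 24 h and 2 at 48 h, and the 24 h call ended with the mean of its probe sets (0.127). The cadherin gene Celsr3 was lower (-0.77 ± 0.17 and -1.09 ± 0.17). Prickle2 was higher (0.80 ± 0.21 and 0.63 ± 0.21), but its 24 h call ended without any one of in-sphere replicate 1 (0.0547) and outside replicate 2 (0.0554), and its 48 h call without any one of in-sphere replicates 1 (0.109) and 2 (0.102) and outside replicates 2 (0.0959) and 3 (0.0873).

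The genes most like each member are given as a description, by Pearson's r over 12 arrays that share the 4 groups, so that any gene parting the compartments correlates. For Dkk2 they were the urea transporter gene Slc14a1 (0.995), Mgarp (0.993) and Ifi202b (0.992). For Sfrp2 they were Dctpp1 (0.991), the serine synthesis gene Psat1 (0.990) and the transcription factor gene Tbx3 (0.990). Dkk3 ran most like Fhl2 (0.969), the mesenchymal homeobox gene Prrx1 (0.967) and the procollagen processing gene Pcolce (0.962). Wnt5a ran most like Ebf3 (0.984), the Hippo pathway factor gene Tead1 (0.976) and Amot (0.971). Nearest to Fzd7 were Pwwp2b (0.968), Gigyf1 (0.966) and the retinoic acid hydroxylase gene Cyp26b1 (0.958). Nearest to Kremen1, on a range close to the filter level, were Paip2 (0.940), Klf2 (0.939) and Homez (0.912).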

How the data were processed

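Values were deposited by the authors as log2 expression per probe set; the submitters' processing notes name RMA and Affymetrix Expression Console 1.1. The base of the logarithm follows from the values' range. RMA usually equalises array distributions, yet array medians ran from 3.03 to 3.17. No scanner file was used. Of 45141 probe sets the platform annotation gave 28898 with 1 symbol and 551 with several, and 15692 are unnamed here.

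The probe set of highest mean stood for each of 17097 genes, and 12488 passed the filter. All 12 arrays entered 1 model of group means (limma 3.58.1, R 4.3.3; 8 residual and 4.09 prior degrees of freedom). P-values were adjusted by Benjamini-Hochberg over all tested genes and called under 0.05. They rest on the spread between arrays within groups, and the model took the 12 arrays as independent. Those for time outside spheres therefore leave out what same-numbered outside arrays share. Counts at an unadjusted p under 0.05 have no share of all genes beside them, as none was taken. Errors are SE unless SD is written. The fit was tested on simulated data. Named are all members, of each pathway list the called genes up to the 5 with the largest differences, the 3 best correlated genes per member, and up to 4 genes of a marker list; further markers were named after their values were seen. A called gene of the planar polarity and calcium list is counted but not reported here. Members and lists were chosen with earlier results of these data known.

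Replicates are independent experiments per the labels' design text, and both compartments came from the same cultures, so equal numbers were taken to pair arrays. Deviations of same-numbered arrays correlated at 0.471, 0.473 and 0.419 between outside groups, at 0.0215, 0.120 and 0.0813 between compartments at 24 h and at 0.117, 0.0417 and 0.112 at 48 h. Alternatives changed the block, filter, probe set choice, array weights, scaling, variance trend, groups fitted and arrays included.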

Additional observations from a re-analysis of the deposited data

How the results depend on the processing

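Of 1671 refits of single genes, 1547 kept direction and side of the threshold, 73 lost a call, 22 gained one and 29 changed sign. The difference of Dkk2 between compartments has no test, and its refits counted as kept where it moved by less than the SD between arrays. Wnt5a at both times, and Dkk3 and Fzd7 at 48 h, stayed past the threshold under all 21 alternatives.

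Members lower at 24 h numbered 0, not 1, with the mean of probe sets, without a filter and with the replicate block, and 0 to 1 when arrays were left out. Without a filter 2 members were lower at 48 h, the added one being Wif1 (-0.40). Lower pathway genes at 24 h numbered 10 with array weights. Leaving out arrays gave 7 to 13 higher at 24 h (7 without in-sphere replicate 1) and 6 to 10 at 48 h (6 without in-sphere replicate 2). For time outside spheres array weights called 1 member, Fzd7 (0.92, adjusted p = 0.0290), and 1 pathway gene, Ctnnb1, as did quantile normalization (1) and an intensity trend (1). For the movement of the difference, array weights, alone or with the replicate block, called 1 gene, Wnt11. The replicate block changed no call beyond Fzd7, Bambi and Tle3 at 24 h and Tcf7l1 at 48 h.

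Signs changed with the mean of probe sets for Csnk1d (0.013) and Tnks (-0.057 at 24 h, -0.093 at 48 h), and for the in-sphere time change with array weights of Fzd7 (0.0079) and Wnt5a (0.034; quantile normalization 0.093). The movement of the Sfrp2 difference was 0.22 with array weights, 0.042 after quantile normalization and 0.099 with block and weights. Leaving out single arrays moved values across 0 for the in-sphere time change of Dkk2 (-0.11 to 0.42), Dkk3 (-0.13 to 0.36), Sfrp2 (-0.82 to 0.010) and Wnt5a (-0.25 to 0.077), the outside time change of Kremen1 (-0.18 to 0.042) and Wnt5a (-0.098 to 0.31), the movement of the difference of Dkk2 (-0.24 to 0.28), Sfrp2 (-0.49 to 0.34) and Wnt5a (-0.38 to 0.040), and the 48 h difference of Bcl9l (-0.12 to 0.26) and Tnks (-0.046 to 0.15). None of these was past the threshold except Csnk1d and Tnks at 24 h, and the cause was not tested. Signal near background limits Dkk1, Sfrp1, Wif1, Axin2 and, by the probe set used, Kremen1.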
